A study of Mus musculus with 16 samples.

Results

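The 4 ERBB receptors and 5 of their ligands were followed in bulk RNA-seq of transplanted mouse glioblastoma. They are the receptors Egfr, Erbb2, Erbb3 and Erbb4 and the ligands Nrg1, Nrg2, Nrg3, Hbegf and Tgfa, taken by symbol from the deposited table of all libraries. All 9 of 9 were found among its 26466 genes, and all 9 passed the filter on low values. The 16 libraries are tumours of 2 kinds that the labels call Type 1 and Type 2, each as Control or as TAM depleted. TAM stands for tumour-associated macrophage. Type 1 has 5 Control and 3 TAM depleted libraries, and Type 2 has 4 of each. All 16 tumours are labelled as transplanted. The labels give no strain, genotype, cell of origin, age or time after transplantation, and they do not say how TAMs were depleted. They tie no library to an animal, and the p-values therefore cover only the spread among these libraries. The sample descriptions of Type 2 Control 4 and Type 2 TAM depleted 4 hold letter codes where the others hold numbers. What these codes mean is not given.

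ERBB receptors are receptor tyrosine kinases that signal as pairs. EGFR binds TGF-alpha and HB-EGF, ERBB3 and ERBB4 bind neuregulins, and HB-EGF also binds ERBB4. ERBB2 has no known ligand of its own and serves as a partner, while ERBB3 has a weak kinase and signals mainly through its partner. In the brain, Egfr is known from neural stem and progenitor cells, astrocytes and many gliomas. Erbb3 is known there from the oligodendrocyte lineage, and in peripheral nerves from Schwann cells. Erbb4 and Nrg3 are known from neurons.

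Values are normalized counts, that is, reads divided by the size factor of the library. Where genes are compared with each other, the value is the normalized count per kb of annotated exon. Depth ran from 4.21 to 18.3 M reads. The libraries fall into a high-background and a low-background set by reads in genes of olfactory and vomeronasal receptors, which few cells outside the nose express. The 9 high-background libraries had 2666 to 8480 such reads per M reads at a depth of 4.21 to 9.16 M. They are all 5 Type 1 Control libraries, Type 2 Control 1 and 3, and Type 2 TAM depleted 3 and 4. The 7 low-background libraries had 95 to 779 at a depth of 13.1 to 18.3 M. A single predicted gene, Gm10800, took 13.8% to 58.2% of reads in the high-background libraries, with the most in Type 2 Control 1. In the low-background libraries it took 0.0491% to 2.03%. The depths given include these reads. In Type 1 the set and the depletion coincide, so the effects of depletion and of background cannot be told apart there. The median receptor gene of that kind stood at 5.45 to 25.5 per kb in the high-background libraries. Of the members, Nrg2 was above that median in 7 of those 9 libraries, Nrg3 in 8 and the other 7 members in all 9. The lowest ratios to it were 0.312 for Nrg2, 0.678 for Nrg3 and 1.11 for Egfr, all in Type 2 Control 1. Next came Erbb2 at 1.17, Erbb3 at 1.20 and Tgfa at 1.25, all in Type 1 Control 5. In that library the Type 1 Control values of these members thus lay near the background. The upper decile of the receptor genes was passed by Erbb2 and Nrg3 in 5 of the 9 libraries and by Nrg2 in 6. Erbb3 and Tgfa passed it in 7, Egfr in 8, and Erbb4, Nrg1 and Hbegf in all 9.

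Erbb3 separated the tumour kinds more than any other member. It is on chromosome 10 of GRCm38, from 128567523 to 128589652 on the minus strand. In Type 1 Control, libraries 1 to 5 had 88.8, 154, 155, 75.4 and 57.7 normalized counts of Erbb3. In Type 1 TAM depleted, libraries 1 to 3 had 42.7, 41.2 and 61.3. In Type 2 Control, libraries 1 to 4 had 865, 757, 2838 and 3298. Every Type 2 Control library was above every Type 1 library, with libraries 3 and 4 higher than 1 and 2. In Type 2 TAM depleted, libraries 1 to 4 had 225, 884, 64.7 and 299.9. Library 3 of that group lay within the Type 1 Control range, and library 2 lay within the Type 2 Control range.

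**Figure D1:**
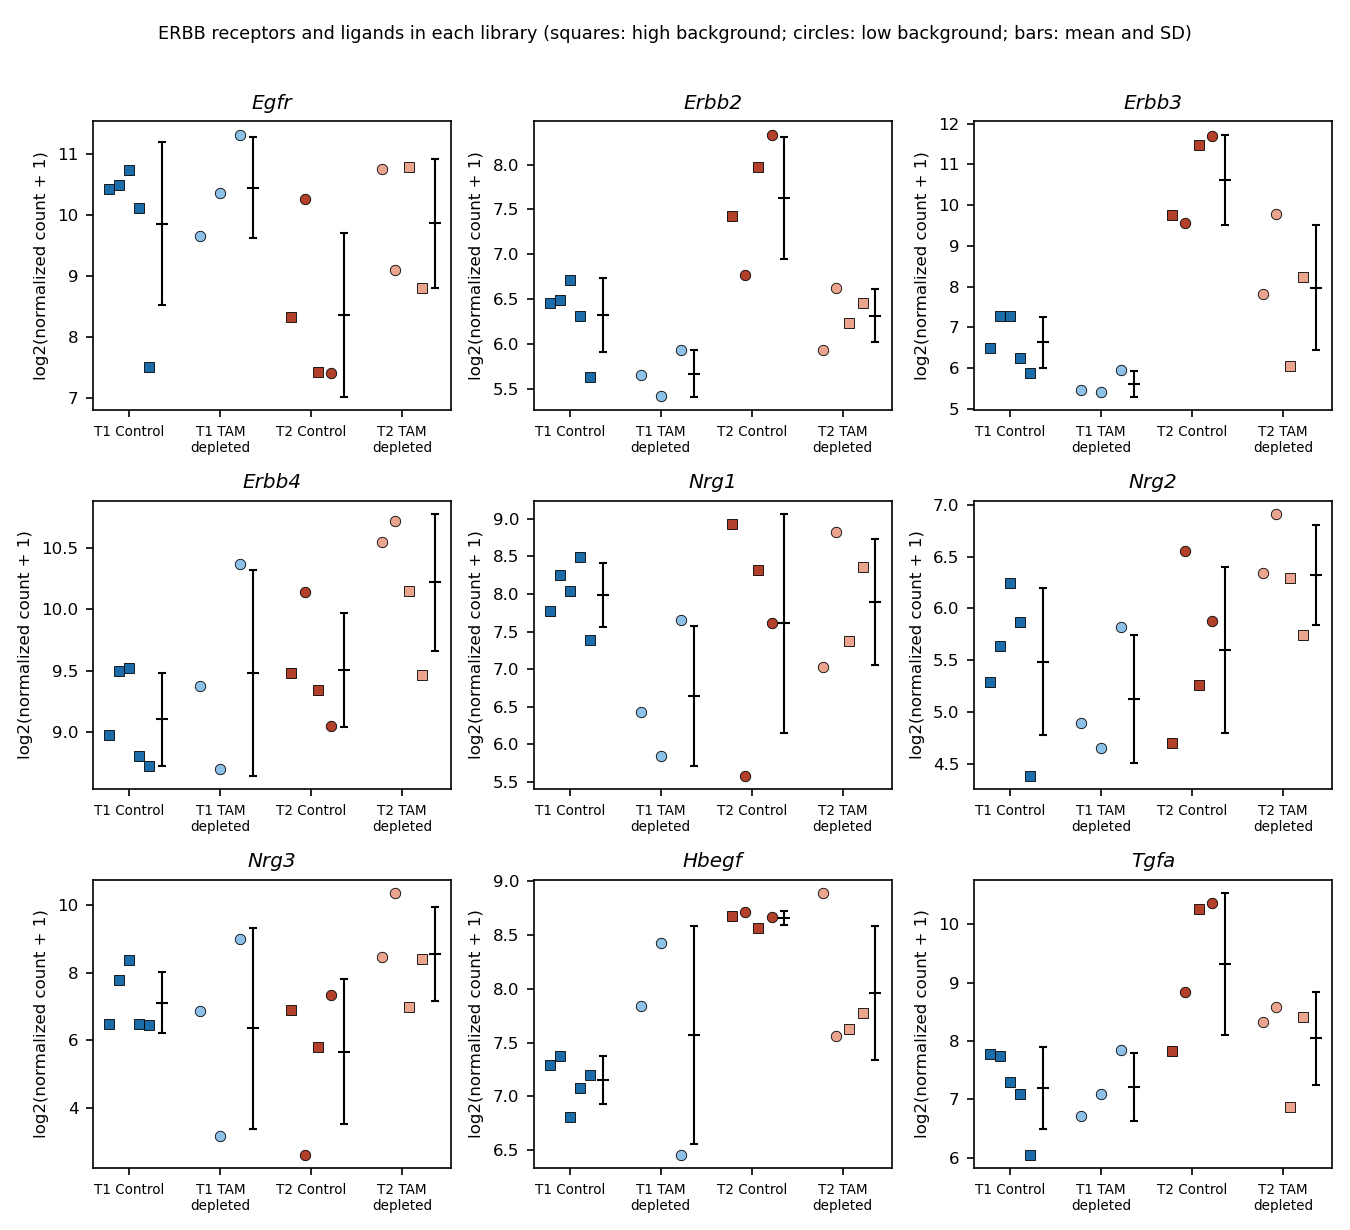
Normalized counts of the 9 members in each of the 16 libraries, as log2(normalized count + 1), by group (T1 and T2 stand for Type 1 and Type 2). Squares are high-background and circles low-background libraries, and bars are the mean and SD of each group. For Erbb3 the 4 Type 2 Control libraries sit between 757 and 3298 normalized counts, above all 8 Type 1 libraries, while Nrg3 spans 5.01 to 1323.

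Erbb2, the partner receptor without a known ligand, followed a smaller version of this pattern. It is on chromosome 11, from 98412470 to 98437716 on the plus strand. In Type 1 Control, libraries 1 to 5 had 86.8, 89.0, 104, 78.4 and 48.7 normalized counts of Erbb2. Type 2 Control libraries 1 to 4 had 172, 108, 251 and 322. Every Type 2 Control library was above every Type 1 Control library, though library 2 only by a little. In Type 1 TAM depleted the 3 values were 49.4, 41.8 and 60.2. In Type 2 TAM depleted they were 60.3, 97.5, 74.4 and 86.9, all below the 4 Type 2 Control values. Erbb2 overlaps Mien1 on the other strand, and the libraries do not mark strand, so reads in the overlap cannot be assigned to either. Mien1 itself had at most 55.6 normalized counts in any library, and its log2 fold change was -0.08 between the Control groups and 0.41 between the Type 2 groups.

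Egfr, the receptor for Tgfa and Hbegf, was abundant in most Type 1 libraries and low in most Type 2 Control libraries. It is on chromosome 11, from 16752203 to 16918158 on the plus strand, and overlaps Egfros on the other strand. Type 1 Control libraries 1 to 5 had 1373, 1443, 1708, 1108 and 180.4 normalized counts of Egfr. In Type 1 TAM depleted, libraries 1 to 3 had 808, 1312 and 2549. In Type 2 Control, libraries 1 to 4 had 322, 1229.8, 172 and 169. The groups overlapped in both directions, because Type 1 Control 5 was as low as the lower Type 2 libraries and Type 2 Control 2 was within the Type 1 range. In Type 2 TAM depleted, libraries 1 to 4 had 1731, 549, 1770.0 and 444. Egfros had at most 151 normalized counts in any library. Erbb4, a neuregulin receptor on chromosome 1, from 68032186 to 69108059 on the minus strand, varied least, from 415 to 1679.6 over all libraries. Its means were 564 ± 151 (SD, n = 5) in Type 1 Control, 798 ± 466 (n = 3) in Type 1 TAM depleted, 755 ± 260 (n = 4) in Type 2 Control and 1253 ± 431 (n = 4) in Type 2 TAM depleted.

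Among the ligands, Tgfa, which activates EGFR, had the largest mean difference between the 2 Control groups. It is on chromosome 6, from 86195223 to 86275719 on the plus strand. Its normalized counts in Type 1 Control were 218, 212, 156, 136 and 65.0 in libraries 1 to 5. Those of Type 2 Control were 225, 455, 1226 and 1313 in libraries 1 to 4. The groups did not overlap, but Type 2 Control 1 was close to the highest Type 1 Control libraries. In Type 1 TAM depleted Tgfa had 104, 135 and 229, and in Type 2 TAM depleted 319, 384, 115 and 338. Type 2 TAM depleted 3, the library with the lowest Erbb3 of the Type 2 tumours, also had their lowest Tgfa.

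Upstream sequence is shown for Erbb2 and Tgfa, which like Erbb3 were higher in all Type 2 Control than in all Type 1 Control libraries, and for Egfr, which was not. Promoter windows were available here for 5 of the 9 members, from RefSeq on GRCm38.p6. Each line gives the plus strand, 5′ to 3′, from 250 to 51 bases before the gene's start in RefSeq, and no annotated exon overlaps it. For Erbb2 and Tgfa that start differs from the GENCODE start given above. Capitals mark a GC box.
Erbb2, chr11:98412234-98412433: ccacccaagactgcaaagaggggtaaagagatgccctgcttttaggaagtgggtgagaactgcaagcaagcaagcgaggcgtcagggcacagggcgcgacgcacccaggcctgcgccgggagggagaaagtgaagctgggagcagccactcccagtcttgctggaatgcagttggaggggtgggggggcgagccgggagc
Tgfa, chr6:86194972-86195171: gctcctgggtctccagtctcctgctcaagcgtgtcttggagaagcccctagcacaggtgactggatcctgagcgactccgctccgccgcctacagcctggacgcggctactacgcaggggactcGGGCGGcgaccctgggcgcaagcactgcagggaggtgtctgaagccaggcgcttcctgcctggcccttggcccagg
Egfr, chr11:16751953-16752152: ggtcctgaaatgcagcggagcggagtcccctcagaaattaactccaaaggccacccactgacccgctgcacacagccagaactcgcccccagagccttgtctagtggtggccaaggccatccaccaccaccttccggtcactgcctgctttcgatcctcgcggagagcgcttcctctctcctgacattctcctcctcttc
Both strands were searched for 4 motifs. A GC box, read as GGGCGG, was held by 24.5% of all 27025 promoter windows of 200 bases. A CCAAT box, with just those letters, was held by 28.9%. A TATA box, read as TATAAA, was held by 9.48%. An E-box, read as CANNTG, was held by 58.9%. Tgfa held 1 GC box and 1 E-box, Erbb2 held 1 E-box, and Egfr held none of the 4. The windows had 63.5% G and C in Erbb2, 67.5% in Tgfa and 60.0% in Egfr, against a median of 51.5% over all windows. A match is a description of the letters and says nothing on binding.

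Hbegf, the ligand shared by EGFR and ERBB4, is on chromosome 18, from 36504927 to 36515805 on the minus strand. Type 1 Control libraries 1 to 5 had 156, 165, 111, 134 and 146 normalized counts of Hbegf, and Type 2 Control libraries 1 to 4 had 408, 421, 379 and 406. Both groups were tight and did not overlap. In Type 1 TAM depleted the values were 228, 343 and 86.5. In Type 2 TAM depleted they were 474, 188, 196 and 218, with library 1 above all Type 2 Control libraries and the other 3 below them.

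The neuregulins, which bind ERBB3, ERBB4 or both, did not separate the groups. Nrg1, on chromosome 8 from 31814551 to 32884029, ran from 166 to 359 normalized counts in Type 1 Control, 56.3 to 201 in Type 1 TAM depleted, 46.7 to 486 in Type 2 Control and 129.7 to 454 in Type 2 TAM depleted. Nrg2, on chromosome 18 from 36017652 to 36197380, was the lowest member per kb in Type 1 Control and ran from 19.8 to 119.6 over all libraries. Nrg3, a neuronal neuregulin on chromosome 14 from 38368952 to 39473088, had the widest range of the 9. Type 2 Control libraries 1 to 4 had 118, 5.01, 55.2 and 161 normalized counts of Nrg3. In Type 2 TAM depleted they had 354, 1323, 126 and 341. In Type 1 it ran from 86.6 to 329 in Control and from 7.87 to 516 in TAM depleted. Nrg3 overlaps Nrg3os on the other strand, which had at most 137 normalized counts.

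The first comparison asks how Control tumours of the 2 kinds differ. Erbb3, Tgfa, Hbegf and Erbb2 were higher in Type 2 Control than in Type 1 Control, and no member was lower past the threshold. With limma-trend, 4 of 9 members passed an adjusted p of 0.05, against 3.09% of the 26463 genes tested. All 4 were higher, which 2.28% of genes were. With the filter at 50 normalized counts, 6.17% of 17074 genes passed in either direction. The same 4 members had groups of libraries that did not overlap, as did 6.95% of genes. For Erbb2 and Tgfa this includes Type 2 Control 1, where both lay under the upper decile of the olfactory and vomeronasal receptor genes. On log2(normalized count + 1), Erbb3 was 3.99 higher (SE 0.61, limma adjusted p = 0.00122), a 15.8-fold difference. Erbb3 ranked 115th of all genes by p. Its values in Type 1 Control 4 and 5 lay under the upper decile of the olfactory and vomeronasal receptor genes. The fold thus includes values near the background. Tgfa was 2.13 higher (SE 0.52, limma adjusted p = 0.0322), Hbegf 1.51 (SE 0.35, adjusted p = 0.0240) and Erbb2 1.31 (SE 0.32, adjusted p = 0.0343).

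The other 5 members did not pass. Egfr had a log2 difference of -1.50 (SE 0.70, limma adjusted p = 0.359), with a 95% interval from -2.98 to -0.01 before adjustment. For Nrg3 it was -1.46 (95% interval -3.69 to 0.78), and -0.43 without Type 2 Control 2. Nrg1 gave -0.38 (-1.58 to 0.83), Nrg2 0.11 (-0.82 to 1.05) and Erbb4 0.40 (-0.35 to 1.15). The median over the 9 members was 0.40, and over all genes it was -0.23.

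**Figure D2:**
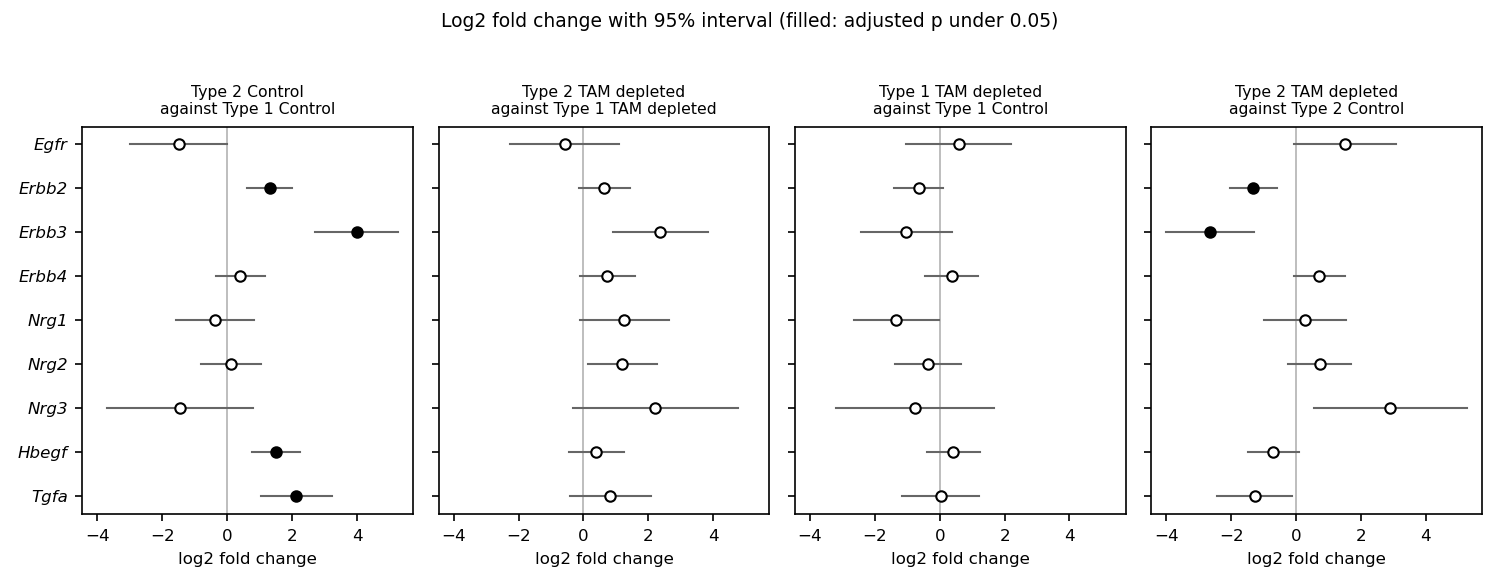
Log2 differences of the 9 members on log2(normalized count + 1) in the 4 comparisons of 2 groups, with 95% intervals from limma-trend; filled points passed an adjusted p of 0.05. Erbb3 reads 3.99 between the Control groups and -2.65 between the Type 2 groups, and no member passed in Type 1.

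The Erbb3 call was the firmest of the 4. It passed when any 1 of the 16 libraries was left out, with log2 differences of 3.63 to 4.34 and limma adjusted p of 0.000312 to 0.00792. Among the high-background libraries alone Erbb3 was 3.98 higher (limma adjusted p = 0.00205). The same libraries gave Hbegf 1.47 (adjusted p = 0.0161), Tgfa 1.85 (adjusted p = 0.133) and Erbb2 1.38 (adjusted p = 0.0607) by limma. With the background set as a term in the fit over all libraries, Erbb2 was 1.36 higher and kept its call (limma adjusted p = 0.0441). Hbegf at 1.36 and Tgfa at 1.79 lost theirs (limma adjusted p = 0.0576 and 0.0830). Hbegf also lost it without any 1 of Type 1 Control 3, 4 or 5 or Type 2 Control 2, 3 or 4 (limma adjusted p up to 0.0626). Tgfa lost it without Type 1 Control 3, 4 or 5 or Type 2 Control 3 or 4 (up to 0.125). Erbb2 lost it without Type 1 Control 1, 2, 4 or 5 or Type 2 Control 3 or 4 (up to 0.127). Over all 16 omissions the log2 differences stayed at 1.42 to 1.56 for Hbegf, 1.78 to 2.63 for Tgfa and 1.07 to 1.59 for Erbb2.

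The makeup of the receptors differed as well. Per kb, Erbb3 made up 63.4% ± 21.9 (SD, n = 4) of the transcripts of the 4 receptors in Type 2 Control, with 54.7%, 36.3%, 80.3% and 82.1% in libraries 1 to 4. It made up 10.1% ± 2.6 (n = 5) in Type 1 Control and 4.02% ± 1.07 (n = 3) in Type 1 TAM depleted. Egfr held 52.2% ± 16.5 in Type 1 Control and 11.7% ± 13.7 in Type 2 Control. Erbb3 was the highest receptor in 4 of 4 Type 2 Control libraries, and Egfr in 4 of 5 Type 1 Control and 3 of 3 Type 1 TAM depleted libraries. In Type 1 Control 5 Erbb4 was the highest. Put as a ratio per kb, log2 of Erbb3 over Egfr ran from 0.21 to 5.20 in Type 2 Control, from -3.04 to -0.73 in Type 1 Control and from -4.47 to -3.33 in Type 1 TAM depleted. In Type 2 TAM depleted the ratio ran from -3.86 to 1.60, so libraries 1 and 3 lay on the side of Type 1 and libraries 2 and 4 on the side of Type 2 Control.

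**Figure D3:**
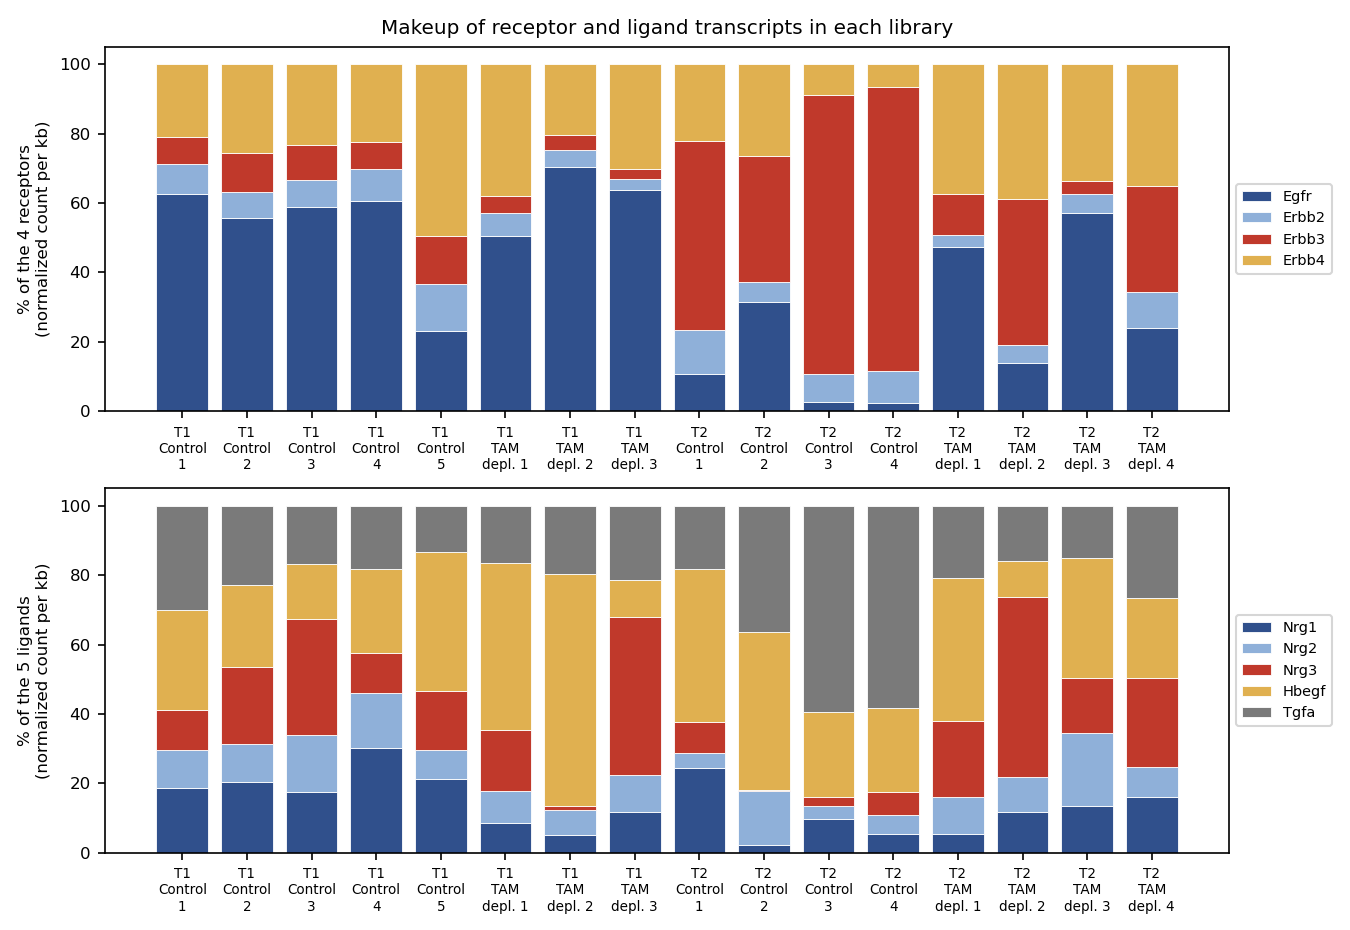
Share of each receptor among the 4 receptors (top) and of each ligand among the 5 ligands (bottom), in percent of normalized counts per kb, for each library (T1 and T2 stand for Type 1 and Type 2, depl. for depleted). Erbb3 takes 36.3% to 82.1% of the receptors in the 4 Type 2 Control libraries and 2.88% to 13.9% in the 8 Type 1 libraries.

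Among the ligands per kb, Tgfa made up 43.1% ± 19.7 (SD, n = 4) in Type 2 Control and 20.2% ± 6.4 (n = 5) in Type 1 Control. Hbegf held 34.6% ± 11.7 and 26.6% ± 8.9 in the same groups. Neither share separated the groups without overlap. The order of all 9 members per kb was Erbb3, Tgfa, Hbegf, Erbb4, Egfr, Erbb2, Nrg1, Nrg2 and Nrg3 in Type 2 Control. Erbb3 was above Tgfa in 4 of 4 of these libraries, although the ranges over libraries overlapped for every pair of neighbours in this order. In Type 1 Control the order was Egfr, Erbb4, Hbegf, Nrg1, Tgfa, Nrg3, Erbb3, Erbb2 and Nrg2. There, only Erbb4 and Hbegf were neighbours whose ranges did not overlap.

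The second comparison asks what differed between Type 2 tumours with and without TAM depletion. Erbb3 and Erbb2 were lower in Type 2 TAM depleted than in Type 2 Control. These 2 of 9 members passed, against 3.61% of all genes in either direction and 1.24% in the lower one. With the filter at 50 normalized counts, 8.07% of 17074 genes passed in either direction. Erbb3 was lower by a log2 difference of -2.65 (SE 0.64, limma adjusted p = 0.0330), a 6.28-fold difference, and the groups overlapped through TAM depleted library 2. Erbb2 was lower by -1.31 (SE 0.34, limma adjusted p = 0.0431), a 2.49-fold difference, with no overlap. Of all genes, 7.25% had groups that did not overlap here.

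Nrg3 had the largest difference in the other direction, 2.90 (SE 1.12, limma adjusted p = 0.168), and did not pass. Egfr gave 1.50 (SE 0.74, limma adjusted p = 0.301) and Tgfa -1.27 (SE 0.55, adjusted p = 0.227). The 95% intervals, before adjustment, were -0.08 to 1.51 for Erbb4, -0.98 to 1.56 for Nrg1, -0.26 to 1.71 for Nrg2 and -1.48 to 0.09 for Hbegf. The Control libraries of this comparison are those of the first one, so the higher Erbb3 and Erbb2 there and the lower values here rest on the same 4 libraries.

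Both calls were lost when certain single libraries were left out. Erbb3 no longer passed without Type 2 Control 3 or 4 or without Type 2 TAM depleted 1 or 3 (limma adjusted p 0.0616 to 0.114, log2 differences of -3.26 to -2.01 over all 16 omissions). Erbb2 passed in only 4 of the 16 omissions, and lost its call without Type 1 Control 1, 2, 3 or 4, Type 1 TAM depleted 1, Type 2 Control 1, 3 or 4 or any 1 of the 4 Type 2 TAM depleted libraries (limma adjusted p 0.0502 to 0.131). Its log2 difference was -1.60 to -1.08 over the omissions, and leaving out a Type 1 library, which enters only the shared spread, left it at -1.31. Within the high-background libraries Erbb3 differed by -3.48 (limma adjusted p = 0.0238), and within the low-background libraries by -1.82 (adjusted p = 0.362). Erbb2 differed by -1.36 (limma adjusted p = 0.141) and -1.27 (adjusted p = 0.369). Each Type 2 group has 2 libraries in each set. On the authors' table of Type 2 libraries alone, 0 members and 0 of all genes passed by limma, with differences of about the same size, -2.64 for Erbb3 (adjusted p = 0.157) and -1.30 for Erbb2 (adjusted p = 0.176).

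In Type 1, 0 of 9 members passed between TAM depleted and Control, and 0% of all genes did by limma-trend. By limma-voom 0 members passed as well. On the authors' table of Type 1 libraries alone, 16381 of 29708 genes (55.1%) passed by limma, and of the members Nrg1 did, at -1.02 (adjusted p = 0.0490). At an unadjusted p under 0.05, 1 member, Nrg1, would pass, as would 30.3% of all genes. Nrg1 differed by -1.35 (SE 0.62, limma adjusted p = 0.157). None of the 9 had groups that did not overlap, while 39.1% of all genes did. For Erbb3 the difference was -1.03 (95% interval -2.43 to 0.37), for Erbb2 -0.65 (-1.40 to 0.09) and for Egfr 0.59 (-1.03 to 2.21). All 3 depleted libraries here are low-background and all 5 Control libraries high-background.

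The responses to depletion were also compared between the tumour kinds. For this difference 0 of 9 members passed with limma-trend, 0 with limma-voom, and 0% of all genes did. At an unadjusted p under 0.05, Nrg3 alone of the 9 differed, by 3.67 (SE 1.60, limma adjusted p = 0.491), as did 10.1% of all genes. For Erbb3 the difference of responses was -1.62 (95% interval -3.56 to 0.33) and for Erbb2 -0.66 (-1.70 to 0.37). These intervals include 0, so the falls in Type 2 were not shown to be particular to Type 2.

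Type 2 TAM depleted was last set against Type 1 TAM depleted. By limma-trend and by limma-voom 0 of 9 members passed, as 0.185% of all genes did by limma-trend, and 2 members did at an unadjusted p under 0.05, as did 12.1% of genes. These 2 were Erbb3, 2.37 higher (SE 0.69, limma adjusted p = 0.202), and Nrg2, 1.20 higher (SE 0.50, adjusted p = 0.355). Erbb3 and Erbb2 had groups that did not overlap, as did 9.07% of genes. Erbb2 was 0.64 higher (95% interval -0.13 to 1.42).

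Across libraries Erbb2, Erbb3 and Tgfa moved together. Pearson's r of log2 values was taken within each background set, because the sets lie apart. Between Erbb2 and Erbb3 it was 0.94 over the 9 high-background and 0.93 over the 7 low-background libraries. Between Erbb3 and Tgfa it was 0.88 and 0.95, and between Erbb2 and Tgfa 0.86 and 0.95. Egfr ran against Erbb3, with r of -0.57 and -0.72. These points share the group difference, so the values describe the libraries and carry no test. The 12813 genes compared had a mean of 50 or more. Mitochondrial genes and those named as predicted, unnamed or pseudogene models were left out. Of the genes compared, 2 had a higher lower-of-the-sets r with Erbb2 than Erbb3 had. Those 2 were Grb10, an adaptor of receptor tyrosine kinases, and Thbs2, a secreted matrix protein. More genes ranked above the partner in the other pairings. With Erbb3, 16 genes were closer than Erbb2 and 98 closer than Tgfa. With Erbb2, 60 were closer than Tgfa. With Tgfa, 25 were closer than Erbb3 and 43 closer than Erbb2.

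**Figure D4:**
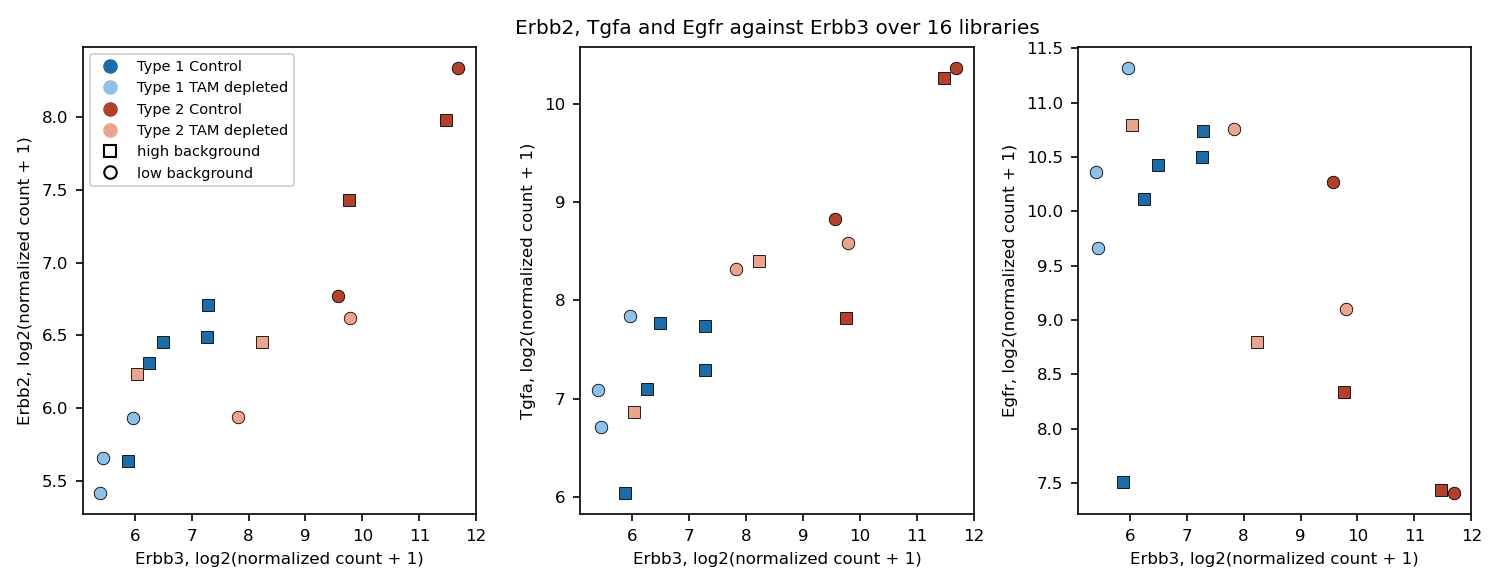
Erbb2, Tgfa and Egfr against Erbb3 in the 16 libraries, all as log2(normalized count + 1), coloured by group, with squares for high and circles for low background. Erbb2 and Tgfa rise with Erbb3 in both sets (r of 0.86 to 0.95 among the 3), while the points of Egfr slope down (r of -0.57 and -0.72), with Type 1 Control 5 low in all 4 genes.

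By the lower of these 2 values, the genes most like Erbb3 were Ptpn13 (0.98), Slc26a2 (0.98) and Tns2 (0.96). Those most like Egfr were Dbx2 (0.92), Hes5 (0.91) and Hey1 (0.89), of which Hes5 and Hey1 are known targets of Notch signalling. Nrg3 was closest to Adcy2 (0.97), Ankrd34c (0.97) and Cntnap2 (0.96), and Tgfa to Zfp469 (0.95), Cobll1 (0.95) and Pigv (0.94). For Nrg1 the nearest was Dnah9 (0.93), for Nrg2 Kcna3 (0.92), for Hbegf Atg4a (0.90) and for Erbb4 Bsdc1 (0.87). Hbegf and Erbb4 thus had the least close partners.

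Markers of several cell types moved with these comparisons, and in bulk tissue fewer cells of a type and less RNA per cell cannot be told apart. Markers of oligodendrocyte precursors, in which Erbb3 is also known, were higher in Type 2 Control than in Type 1 Control for 8 of 8, with 4 called by limma. Sox10, the lineage's transcription factor, was 4.56 higher (limma adjusted p = 9.31e-05), next to Cspg4 at 3.68, Gpr17 at 3.85 and Pdgfra at 2.49. Their summed normalized count ran from 1743 to 8032 in Type 1 Control, 6030 to 12829 in Type 1 TAM depleted, 9072 to 48548 in Type 2 Control and 9528 to 33769 in Type 2 TAM depleted. Per 1000 counts of these markers Erbb3 had 85.2 ± 47.6 (SD, n = 4) in Type 2 Control, 21.8 ± 8.4 (n = 5) in Type 1 Control, 5.67 ± 1.24 (n = 3) in Type 1 TAM depleted and 27.5 ± 30.3 (n = 4) in Type 2 TAM depleted. The ranges overlapped, since Type 2 Control ran from 15.6, in library 2, to 121 and Type 1 Control from 11.1 to 33.1. Between the Type 2 groups 3 of 8 were higher and 5 lower after depletion, and Sox10 alone was called, 2.01 lower (log2 difference -2.01, limma adjusted p = 0.0424).

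Neuron markers ran the other way. All 10 of 10 were lower in Type 2 Control than in Type 1 Control (3 called by limma), and all 10 were higher in Type 2 TAM depleted than in Type 2 Control (6 called). Their sums were 4444 to 20902 in Type 1 Control, 7541 to 25388 in Type 1 TAM depleted, 893 to 7515 in Type 2 Control and 8549 to 63703 in Type 2 TAM depleted. Nrg3 followed this sum, with r of 0.83 over the 9 high-background and 0.89 over the 7 low-background libraries. In the same sets Nrg3 had r of 0.69 and 0.82 with the astrocyte sum, and 0.53 and 0.86 with the oligodendrocyte sum. Erbb4, also known from neurons, had r of 0.18 and 0.38 with the neuron sum. It had 0.32 and 0.69 with the astrocyte sum, 0.72 and 0.34 with the precursor sum, and 0.89 and 0.65 with the oligodendrocyte sum. Per 1000 neuron-marker counts Nrg3 had 12.5 to 19.5 in Type 1 Control and 14.8 to 20.8 in Type 2 TAM depleted. The ranges were 5.61 to 84.6 in Type 2 Control and 1.04 to 20.3 in Type 1 TAM depleted. The part of neuron content in the values of Nrg3 was not tested beyond these ratios.

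Macrophage and microglia markers were all 13 of 13 higher in Type 2 Control than in Type 1 Control (0 called by limma, 10 at an unadjusted p under 0.05). All 13 were lower in Type 2 TAM depleted than in Type 2 Control, with Adgre1, Ptprc and Fcer1g called. In Type 1, 11 of 13 were lower after depletion and 0 were called by limma, with 1 at an unadjusted p under 0.05. Their sums were 1819 to 3672 in Type 1 Control, 1483 to 3471 in Type 1 TAM depleted, 3709 to 9829 in Type 2 Control and 1783 to 3650 in Type 2 TAM depleted. Of 8 oligodendrocyte markers, 6 were higher in Type 2 Control than in Type 1 Control (2 called by limma), and 8 in Type 2 TAM depleted than in Type 2 Control (0 called, 3 at an unadjusted p under 0.05). Of 8 astrocyte markers, 3 were higher in the first of these comparisons and 7 in the second, with 1 called higher in each. Of 8 endothelial markers 6 and 2 were higher, with 0 called by limma and 2 and 1 at an unadjusted p under 0.05. No marker of these 6 lists was at 0 in all libraries of any group. Egfr had an r of -0.87 with the macrophage sum over the 9 high-background and -0.48 over the 7 low-background libraries. For Erbb3 the values were 0.59 and 0.62. With the endothelial sum, r was 0.84 and 0.76 for Erbb3 and -0.82 and -0.49 for Egfr. With the oligodendrocyte precursor sum, Erbb3 had 0.56 and 0.71. The part of these cell types in the differences of the members was not tested.

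**Figure D5:**
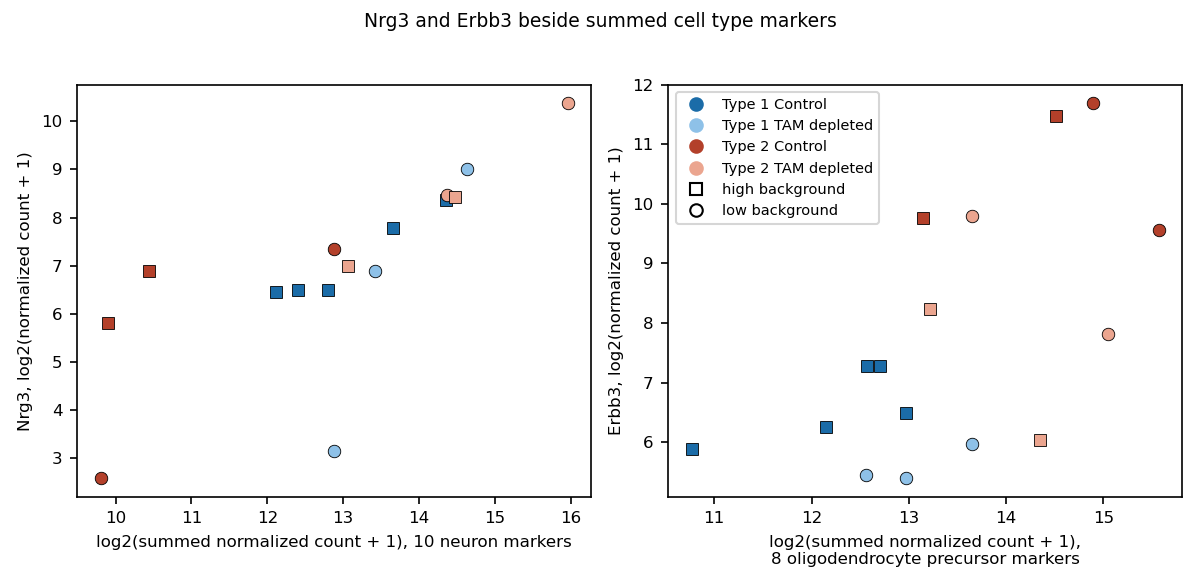
Nrg3 against the sum of 10 neuron markers (left) and Erbb3 against the sum of 8 oligodendrocyte precursor markers (right) in the 16 libraries, as log2 values, coloured by group, with squares for high and circles for low background. Nrg3 follows the neuron sum (r of 0.83 and 0.89). Erbb3 has r of 0.56 and 0.71 with the precursor sum. On the Erbb3 axis the 4 Type 2 Control libraries lie above all 8 Type 1 libraries.

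The other genes of the pathway were taken from 5 lists of 61 genes, 59 of which were tested. Epgn, a further EGF family ligand, and Fosl1, a MAPK output gene, were not. Between the Control groups 6 of 59 were higher in Type 2 and 0 lower past the threshold, beside 2.28% of all genes higher. The median was 0.23 over the 59 and -0.23 over all genes. Among 7 genes of ligand release, Adam12, a metalloprotease that can shed HB-EGF, was 2.31 higher (limma adjusted p = 0.000860), and Rhbdf1, a partner of the sheddase ADAM17, 1.45 higher (adjusted p = 0.0267). Among 26 adaptor and relay genes, Gab1 was 2.01 higher (limma adjusted p = 0.00523), Stat3 1.38 (adjusted p = 0.0208) and Shc1 1.10 (adjusted p = 0.0276). Among 14 negative regulators Dusp6, an ERK phosphatase, was 1.52 higher (limma adjusted p = 0.0377). The 5 further EGF family ligands and 7 MAPK output genes had 0 calls by limma. At an unadjusted p under 0.05 these 2 lists had 0 and 3.

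Between the Type 2 groups Adam12 was lower after depletion by a log2 difference of -1.94 (limma adjusted p = 0.0122) and Rhbdf2, also a partner of ADAM17, by -1.73 (adjusted p = 0.0190). Epha4, listed as a MAPK output gene and also a neuronal guidance receptor, was 2.56 higher (limma adjusted p = 0.0423). The other 56 of the 59 did not pass, and 3.61% of all genes did. The median over the 59 was 0.22, against -0.21 over all genes. In Type 1, between the depleted groups and for the difference of responses, 0 of 59 passed by limma. At an unadjusted p under 0.05 the counts of 59 there were 13, 3 and 7, beside 30.3%, 12.1% and 10.1% of all genes.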

How the data were processed

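Per the labels' protocols, RNA of 16 tumours was purified by TRIzol phase separation and miRNeasy Micro columns, and SMART-Seq v4 libraries were made. This kit copies full-length cDNA and does not mark strand. The submitters' processing notes name STAR 2.7.8a, DESeq2 and the build GRCm38. Neither they nor the labels name the counting tool or its annotation. The authors deposited 3 tables of variance-stabilized log2 values, with lowest values of 3.74, 2.39 and 4.87. They were inverted to normalized counts. These were whole multiples of 1 read in 100% of values (tolerance 0.05 reads). Reads carry no molecular identifiers.

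Genes with 10 or more normalized counts in at least 3 libraries (26463) were fitted with limma-trend (limma 3.58.1, R 4.3.3) on log2(normalized count + 1). The fit had 4 group means over all libraries and 12 residual degrees of freedom. P-values are 2-sided and were adjusted over all genes tested by the Benjamini-Hochberg method. A count model was not the main test. The deposited values are on a log2 scale and were tested on a log scale, although whole reads could be recovered. Voom on the recovered reads was an alternative. Exon lengths and coordinates are those of GENCODE vM21. Replicates all differed by more than sampling noise, with a chi-square of at least 9.43 per degree of freedom. Libraries with over 1500 receptor-gene reads per M reads formed the high-background set. Named genes were all 9 members, up to 3 called genes of each pathway list with the smallest p, and the genes with the highest lower-of-the-sets r. The search by r left out mitochondrial genes and those named as predicted, unnamed or pseudogene models. The members and lists were chosen with earlier results of these data known. Alternatives were other pseudocounts, filters, scaling, voom, a replicate block, the background sets, the separate tables and leaving out each library.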

Additional observations from a re-analysis of the deposited data

Results flagged for a closer look

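In 27 groups of 4 or 5 libraries (9 members in 3 groups), 3 held a library far from the others by Dixon's 95% criterion, and chance alone marks about 1 in 20 groups. Egfr in Type 1 Control 5 was 180.4 normalized counts, with the other 4 libraries at 1108 to 1708. The same library had the lowest marker sums of that group for astrocytes (3591, others 11471 to 17120), oligodendrocyte precursors (1743), neurons (4444) and oligodendrocytes (1070). It had the highest for macrophages and microglia (3672) and for endothelial cells (1518). Hbegf in Type 2 TAM depleted 1 was 474.4 normalized counts, with the other 3 at 188 to 218. Tgfa in Type 2 TAM depleted 3 was 115.4 normalized counts, with the other 3 at 319 to 384. That library also had the lowest Erbb3 of the Type 2 tumours, 64.7.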

How the results depend on the processing

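Of 1134 values of members under the alternatives, 1060 kept direction and side of the threshold, 48 lost a call, 1 gained one and 25 turned direction. Most of the 45 member results had no call to lose. The 48 losses all fell on the 4 calls between the Control groups and the 2 in Type 2 depletion. Members called between the Control groups numbered 4, but 1 with a replicate block, 2 with the background set as a term, 2 in high-background libraries only, and 1 to 4 when 1 library was left out. In Type 2 depletion they numbered 2, but 0 with the replicate block, 1 in high-background libraries only, 0 in low-background libraries only, 0 in the Type 2 table alone, and 0 to 2 when 1 library was left out. In Type 1 depletion they numbered 0, but 1 in the Type 1 table alone (Nrg1). The labels do not say whether the replicate numbers pair the libraries, and the main fit took them as unpaired. Over deviations from the group means, 21 same-number pairs had r of -0.67 to 0.50. Pairs with different numbers were not compared, so these values cannot decide on a pairing. Erbb3 between the Control groups was called in all of these settings.

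Members that turned direction had passed no test. With upper quartile scaling, Type 1 depletion gave -0.018 for Erbb4 and -0.37 for Tgfa, and with voom -0.014 for Tgfa. With the replicate block it gave -0.26 for Egfr and -0.15 for Tgfa, and Nrg2 between the Control groups gave -0.16. With the background set as a term, Type 1 depletion gave -0.13 for Erbb4 and -0.66 for Tgfa, and the Control groups gave 0.11 for Nrg1 and -0.35 for Nrg2. In high-background libraries only, the Control groups gave 0.64 for Nrg1 and -0.50 for Nrg2, and Type 2 depletion gave -0.76 for Nrg1. With 1 library left out, the Control groups ranged from -0.82 to 0.30 for Nrg1 and -0.20 to 0.41 for Nrg2. Type 1 depletion ranged from -0.29 to 0.28 for Tgfa, -2.10 to 0.83 for Nrg3, -0.0068 to 0.98 for Hbegf and -0.066 to 0.77 for Erbb4. Type 2 depletion ranged from -0.39 to 0.73 for Nrg1, the difference of responses from -0.052 to 0.78 for Erbb4, and the TAM depleted groups from -0.17 to 0.82 for Hbegf. The causes were not tested.

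Counts of all genes called also moved. Between the Control groups 819 became 2343 with voom and 347 with the replicate block. With the filter at 50 normalized counts, which kept 17074 genes, it became 1053 there and 1378 in Type 2 depletion. In Type 2 depletion 956 became 297 with the block, 2635 with the background term, 573 and 0 in high- and low-background libraries only, and 0 in the Type 2 table alone. Between the depleted groups 49 became 16 with the block, 215 with the term and 24 in low-background libraries only. In Type 1 depletion 0 became 16381 in the Type 1 table alone, and for the difference of responses 0 became 166 with the term and 1 with the block. Upper quartile scaling moved the median log2 difference of all genes from -0.23 to -0.34 between the Control groups, from -0.06 to -0.44 in Type 1 depletion, from -0.21 to -0.41 in Type 2 depletion and from 0.16 to 0.34 for the difference of responses. It changed the higher and lower calls between the Control groups from 603 and 216 to 625 and 446, and in Type 2 depletion from 627 and 329 to 673 and 616. Erbb2 lost its call between the Control groups under that scaling.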
